A study of Mus musculus with 6 samples.

Results

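The genes described here are C1qa, C1qb, C1qc, Cd5l, Mertk, Axl, Gas6, Mfge8, Timd4 and Stab1, which encode complement C1q, a scavenger protein of macrophages, and receptors and bridging proteins for dead cells. They were chosen by name, with results of this comparison already known, so their differences are given as a description and the fit's p-values for them are no independent evidence. For each gene the probe set with 1 symbol and the highest mean over the 6 arrays was to be taken, and each of the 10 had only 1 such probe set, so no choice was made. They are 10 of 19938 genes with a single-symbol probe set. A filter on dim genes, set at the 30th percentile of gene means (6.58), kept 13956 genes and 9 of the 10. Timd4, with a mean of 6.57, lay just under the filter, and the nearest of the 10 above it was C1qa, with a mean of 7.60.

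Clearance of dying cells by phagocytes, called efferocytosis, starts when the lipid phosphatidylserine is exposed on the dying cell. Some receptors bind it directly, while the TAM receptors (Tyro3, Axl and Mertk) and the integrins use soluble bridging proteins. C1q, the recognition part of the first complement component, is built from A, B and C chains and also coats dying cells. It is made largely by macrophages and dendritic cells, which is why it serves as a macrophage marker.

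The series concerns the effect of ultraviolet (UV) irradiation of skin on dendritic cells derived from bone marrow afterwards. Both groups were cells from female C57BL/6J mice, which carry CD45.2, a form of the leukocyte surface protein CD45. All these recipients had received 2000000 bone marrow cells of a congenic strain, B6.SJL-Ptprca, whose cells have the CD45.1 form. In the naive-donor group the donor was untreated, and in the UV-donor group it had been irradiated on its shaved back with broadband UV, at no more than 8 kJ/m2. Mice were 6 to 10 weeks old at irradiation unless stated otherwise. Recipient marrow was grown for 5 days with the cytokines IL-4 and GM-CSF (10 ng/ml of either), which favour dendritic cells, and cells carrying CD11c were enriched to above 95% with magnetic beads. The interval between transfer and harvest, and the share of donor-derived cells in the cultures, are not given in the sources used here. There were 3 preparations and 3 arrays per group. Whether separate mice gave them is not in the labels, so p-values here reflect the spread among preparations, which may be technical.

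The arrays had medians of 7.16 to 7.23 (log2) and correlated at 0.995 to 0.997 over all 35556 probe sets. UV-donor replicate 1 lay farthest from the naive-donor arrays on the first principal component (score 14.1, where UV-donor replicates 2 and 3 scored 4.31 and 3.79 and naive-donor arrays -10.8 to -2.01). Itgax, which encodes CD11c, averaged 13.77 ± 0.02 (log2 signal, SD, n = 3) in naive-donor cells and differed by -0.04 (95% interval -0.14 to 0.06). Named differences of at least 0.1 that moved by over 1.5 times without UV-donor replicate 1 are given with and without it.

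The 3 C1q genes had higher values and Cd5l had lower values in cells of the UV-donor group, while the TAM receptors and the other genes differed by -0.13 to 0.14 on the log2 scale. C1qb was 1.55-fold higher, C1qc 1.38-fold higher and C1qa 1.12-fold higher, and Cd5l was 2.00-fold lower. Of the 9 tested genes 1, C1qb, had a limma p under 0.05 after Benjamini-Hochberg adjustment over all 13956 genes, which counts as called, where 0.172% of all tested genes did so. Groups did not overlap for 5 of the 9 genes (C1qa, C1qb, C1qc, Cd5l and Stab1), as for 21.8% of all tested genes. The UV-donor group was higher in 3 of them (12.4% of all tested genes) and lower in 2 (9.37%). Since the genes were listed with these results known, nothing is read from either count.

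**Figure D1:**
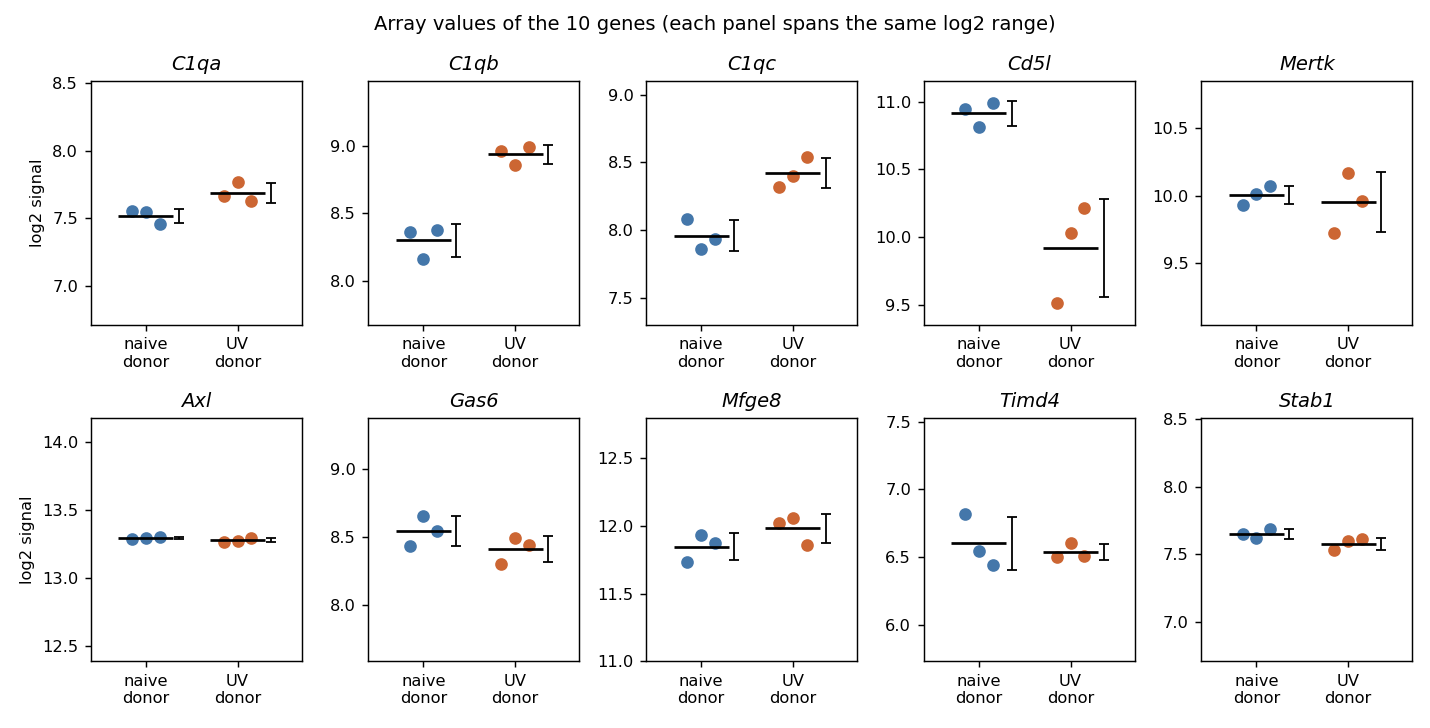
Log2 signal of each of the 10 genes, with 1 point per array, naive-donor arrays in blue and UV-donor arrays in orange. Horizontal lines are group means, bars beside them are 1 SD (n = 3), and every panel spans the same log2 range. C1qa, C1qb and C1qc lie higher and Cd5l lies lower on all 3 UV-donor arrays than on any naive-donor array, and Axl, Mertk, Gas6, Mfge8 and Timd4 overlap.

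C1qb, C1qc and C1qa encode the B, C and A chains of C1q and are consecutive genes on mouse chromosome 4 in the RefSeq gene table of assembly GRCm38.p6, in the order C1qb, C1qc, C1qa. RefSeq promoter sequences of that build were found for 9 of the 10 genes, C1qa being the exception. Those of C1qb and C1qc are shown because these C1q genes had the larger differences, and that of Cd5l because its difference had the opposite sign. Each run gives the 250 bases before the transcript start, 5′ to 3′ on the gene's own strand, at chr4:136886201-136886450 (minus strand) for C1qb, chr4:136892915-136893164 (minus strand) for C1qc and chr3:87357631-87357880 (plus strand) for Cd5l. Capitals mark matches on either strand to the ETS core AGGAAG, the MAF motif TGCTGA or the nuclear receptor motif AGGTCA.
C1qb: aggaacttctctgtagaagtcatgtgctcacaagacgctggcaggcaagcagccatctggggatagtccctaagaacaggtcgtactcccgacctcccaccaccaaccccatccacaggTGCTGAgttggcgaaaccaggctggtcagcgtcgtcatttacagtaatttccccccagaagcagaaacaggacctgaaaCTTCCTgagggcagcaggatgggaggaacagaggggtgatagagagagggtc
C1qc: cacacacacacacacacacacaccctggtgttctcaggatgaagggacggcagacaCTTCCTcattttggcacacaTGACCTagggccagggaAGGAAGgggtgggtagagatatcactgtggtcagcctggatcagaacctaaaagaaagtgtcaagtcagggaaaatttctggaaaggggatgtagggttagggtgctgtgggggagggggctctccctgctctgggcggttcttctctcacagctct
Cd5l: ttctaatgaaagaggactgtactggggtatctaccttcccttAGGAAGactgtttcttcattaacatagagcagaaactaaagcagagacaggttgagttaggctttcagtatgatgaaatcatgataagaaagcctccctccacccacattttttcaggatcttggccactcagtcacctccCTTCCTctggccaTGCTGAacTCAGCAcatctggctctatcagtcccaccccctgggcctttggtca
The ETS core, a motif of the macrophage factor PU.1 and its relatives, was found in all 3 runs and in 29.5% of 32851 RefSeq promoters of the same length. The MAF motif lay 131 to 126 bases before the C1qb start. In Cd5l it occurred on the plus strand 54 to 49 bases and on the minus strand 46 to 41 bases before the start, and it was not found in the C1qc run (16.1% of promoters hold it). The nuclear receptor motif was found in C1qc, 174 to 169 bases before the start, and in neither other run (14% of promoters). The direct repeat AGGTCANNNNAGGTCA, the form bound by liver X receptors (LXR), the interferon element GAAANNGAAA and the TATA box TATAAA were not in these runs, and 0.0152%, 2.98% and 12.4% of all promoters hold them. The motifs were not particular to the genes shown. Of the other genes with a promoter sequence, Axl, Mfge8 and Stab1 held the ETS core, and Timd4 and Stab1 the MAF motif. Timd4 also held the nuclear receptor motif, and Mertk and Gas6 had no match to these motifs. A match or its absence describes these letters only.

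C1qb read 8.36, 8.16 and 8.38 on naive-donor arrays 1, 2 and 3 and 8.96, 8.85 and 8.99 on UV-donor arrays 1, 2 and 3 (log2 signal). The lowest UV-donor array stood above the highest naive-donor array, and UV-donor replicate 1 was not the highest. The group means were 8.30 ± 0.12 and 8.94 ± 0.07 (SD, n = 3 each), so the UV-donor mean was higher by 0.63 (95% interval 0.47 to 0.80), and limma gave an adjusted p of 0.0199 over all genes. The call held without naive-donor replicate 2 or UV-donor replicate 1. It was lost without naive-donor replicate 1, naive-donor replicate 3, UV-donor replicate 2 or UV-donor replicate 3, with differences of 0.57 to 0.68 and limma adjusted p-values of 0.0421 to 0.122 over the 6 omissions.

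C1qc read 8.08, 7.86 and 7.93 on the naive-donor arrays and 8.32, 8.40 and 8.54 on the UV-donor arrays. The groups did not overlap, and the difference of 0.46 (95% interval 0.29 to 0.64) had a limma adjusted p of 0.0724, so it was not called. C1qa read 7.55, 7.54 and 7.46 against 7.66, 7.77 and 7.63, again without overlap. Its difference was 0.17 (95% interval 0.04 to 0.30, limma adjusted p = 0.223).

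The 3 chains did not differ by the same amount. Within arrays, the UV-donor group had a C1qb signal higher by 0.466 relative to C1qa and by 0.174 relative to C1qc, and a C1qc signal higher by 0.293 relative to C1qa, each without overlap of the groups. For C1qb relative to C1qc the lowest UV-donor value, 0.111, was close to the highest naive-donor value, 0.103, and without UV-donor replicate 1 the difference was 0.11. Among the UV-donor arrays, replicate 3 was highest for C1qb and C1qc, while it was lowest for C1qa and replicate 2 was highest. Probe sets can differ in how much of a true change they register, so unequal signals do not give the ratio of the transcripts.

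Cd5l encodes a secreted protein of tissue macrophages, also known as AIM, that carries scavenger receptor domains and is a known target gene of LXR. It read 10.94, 10.81 and 10.99 on the naive-donor arrays and 9.52, 10.03 and 10.21 on the UV-donor arrays. Every UV-donor array lay below every naive-donor array, and UV-donor replicate 1 was lowest. The means were 10.91 ± 0.09 and 9.92 ± 0.36, a difference of -0.996 (SE 0.16, 95% interval -1.36 to -0.64, limma adjusted p = 0.0627), which was not called. It was the second lowest difference of the 13956 tested genes. Without UV-donor replicate 1 the difference was smaller, at -0.79, and was called (limma adjusted p = 0.0169). With each of the other 5 arrays left out it was not called, and over all 6 omissions it ran from -1.14 to -0.79, with limma adjusted p-values up to 0.25. In bulk preparations, a changed number of cells that make a transcript and a changed amount per cell cannot be told apart, for Cd5l or for C1q.

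**Figure D2:**
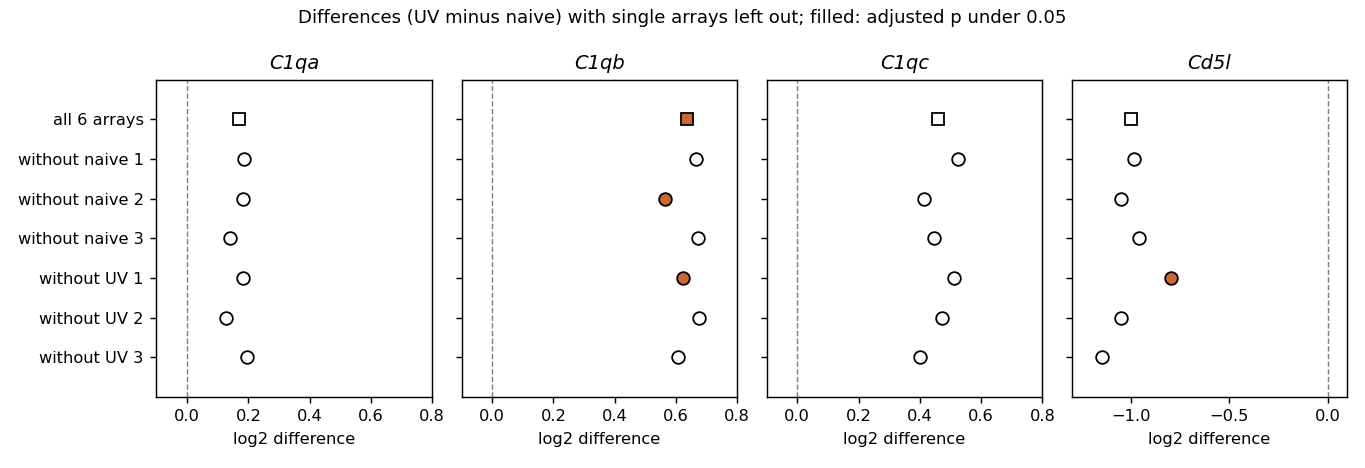
Log2 difference (UV donor minus naive donor) of C1qa, C1qb, C1qc and Cd5l with all 6 arrays (squares) and with each array left out (circles). Filled symbols have a limma adjusted p under 0.05. The difference of C1qb stays between 0.57 and 0.68 and that of Cd5l between -1.14 and -0.79.

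The TAM receptors are tyrosine kinases that bind dying cells through Gas6 and protein S. Mertk, which serves steady uptake of dying cells by macrophages, read 9.93, 10.02 and 10.07 on the naive-donor arrays and 9.73, 10.17 and 9.96 on the UV-donor arrays. The UV-donor values lay on both sides of the naive-donor values, and the difference was -0.06 (95% interval -0.29 to 0.18, limma adjusted p = 0.836). Without UV-donor replicate 1, which was lowest, it was 0.056. Axl read 13.29, 13.29 and 13.30 against 13.27, 13.27 and 13.29, the narrowest spread of the 10 genes, with a difference of -0.017 (95% interval -0.11 to 0.08). With array medians centred the Axl difference was 0.017. The intervals of both receptors hold differences of either sign, and neither interval holds a difference as large as that of C1qb.

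Among the bridging proteins, Gas6, the ligand of the TAM receptors, read 8.43, 8.66 and 8.54 on the naive-donor arrays and 8.30, 8.49 and 8.44 on the UV-donor arrays. The groups overlapped, and the difference was -0.13 (95% interval -0.30 to 0.04, limma adjusted p = 0.426), or -0.08 without UV-donor replicate 1. Mfge8, which links phosphatidylserine to integrins of the αv family, read 11.74, 11.93 and 11.87 against 12.03, 12.06 and 11.86. UV-donor replicate 3 lay within the naive-donor values, and the difference was 0.14 (95% interval -0.03 to 0.30, limma adjusted p = 0.409).

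Stab1 (stabilin-1), a scavenger receptor that binds phosphatidylserine, read 7.65, 7.62 and 7.69 on the naive-donor arrays and 7.53, 7.60 and 7.61 on the UV-donor arrays. The highest UV-donor array lay just under the lowest naive-donor array, and the difference of -0.07 was not called (95% interval -0.18 to 0.04, limma adjusted p = 0.508). Timd4 (TIM-4), a phosphatidylserine receptor of resident macrophages, read 6.82, 6.54 and 6.44 against 6.50, 6.60 and 6.50 and overlapped. It did not enter the fit. In a fit without the filter its difference was -0.06 (95% interval -0.28 to 0.15, limma adjusted p = 0.805).

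**Figure D3:**
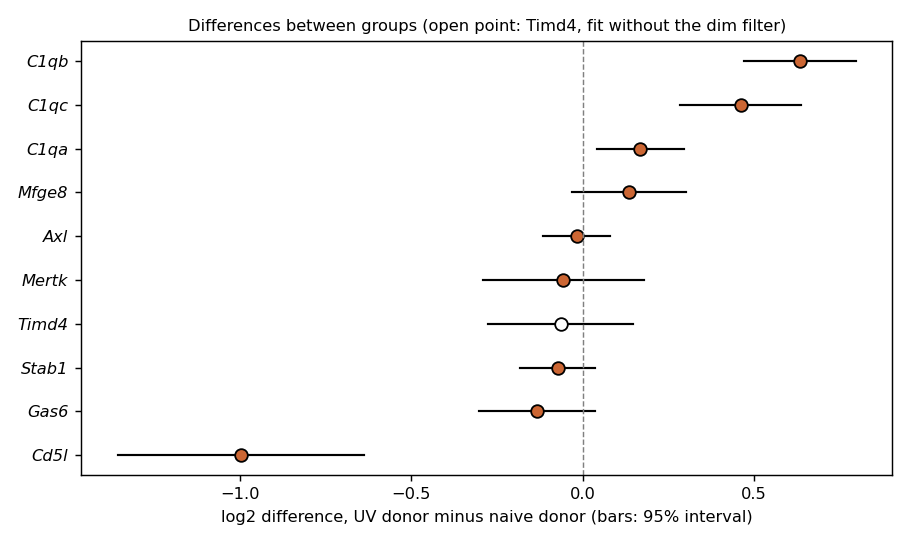
Log2 difference (UV donor minus naive donor) of the 10 genes with 95% intervals from limma. The open point is Timd4, taken from the fit without the filter on dim genes. The intervals of C1qb, C1qc and C1qa lie above 0 and that of Cd5l below 0, and the other 6 intervals include 0.

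The genes were set beside 4 lists of related genes. The list of other efferocytosis genes had 47 members, of which 44 were tested. None was called (limma), 15 had higher and 29 lower values, and the median difference was -0.02, against 0.00 for all tested genes. Before adjustment, limma had 6 higher and 5 lower members at p under 0.05, where 9.60% of all tested genes were higher and 5.49% lower. The same shares stand beside the unadjusted counts of the lists below. The 3 genes of smallest p were Olr1 (LOX-1, a scavenger receptor, -0.24), Pros1 (protein S, the second TAM ligand, -0.24) and Scarb1 (SR-BI, a lipoprotein receptor, 0.20), with limma adjusted p-values of 0.149 to 0.191. Pros1 read 11.48 ± 0.06 on average in the naive-donor group and 11.29, 11.16 and 11.29 on the UV-donor arrays, which all lay below the naive-donor arrays. The third TAM receptor, Tyro3, differed by 0.02 (95% interval -0.13 to 0.17).

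Of the receptors that use the bridging proteins, Itgav (integrin αv) differed by 0.01, Itgb5 by -0.02 and Itgb3 by 0.23, with Itgb3 at a limma adjusted p of 0.259 and at 0.16 without UV-donor replicate 1. Lrp1, a large lipoprotein receptor that acts with calreticulin in uptake of dying cells, differed by -0.26 (limma adjusted p = 0.214), and Calr itself by -0.002. Cd36, a scavenger receptor, differed by -0.10. The phosphatidylserine receptor Havcr2 (TIM-3) differed by 0.30 (limma adjusted p = 0.301; 0.19 without UV-donor replicate 1) with overlapping groups, and Stab2, the relative of Stab1, by -0.10 (-0.061 without it). Havcr1 (TIM-1) lay below the filter. None of these was called.

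Of 28 genes in a list of other complement genes and C1q-like proteins 17 were tested (limma), with 0 called. In value 6 were higher and 11 lower, with a median of -0.01. Without adjustment, 1 was higher and 1 lower at a limma p under 0.05. The 4 genes listed as C1q-like (C1qbp, C1qtnf1, C1qtnf6 and C1qtnf12) were all tested, with 3 higher and 1 lower in value. The higher gene at p under 0.05 was C1qtnf6. The members of smallest p were C4b (-0.18), C1qtnf6 (0.12) and Cfb, factor B of the alternative pathway (-0.18), with limma adjusted p-values of 0.167 to 0.385. Without UV-donor replicate 1 the Cfb difference was -0.095. C4b is 1 of a pair of near-identical genes, so its signal is uncertain. The C1 protease gene C1ra differed by -0.08 (95% interval -0.24 to 0.09). Its partner C1s1, the inhibitor Serping1 and the macrophage complement receptor Vsig4 lay below the filter, and C3 was not analysed here. C1qbp, the mitochondrial protein named for binding C1q, differed by -0.02.

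**Figure D4:**
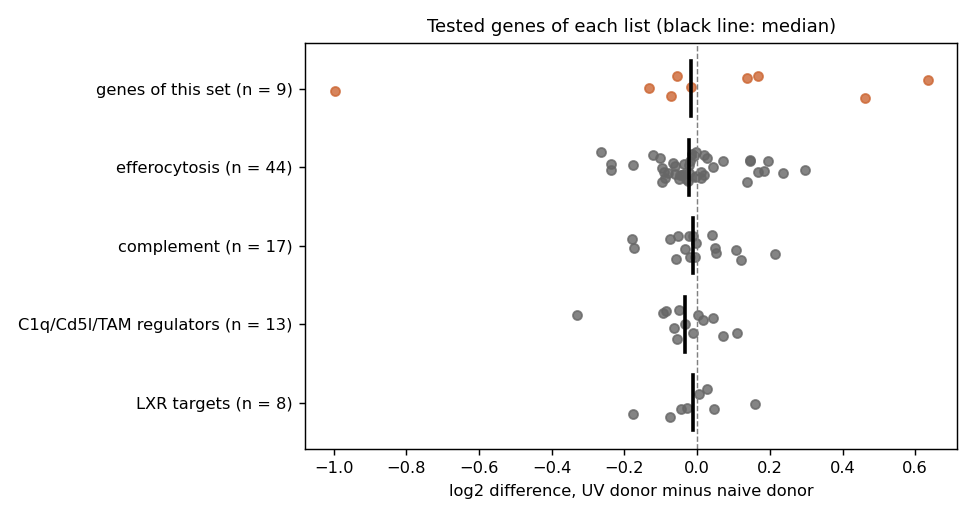
Log2 differences (UV donor minus naive donor) of the tested genes in each list, 1 point per gene with vertical jitter, and the list median as a black line. In orange, 9 of the 10 genes described here range from -0.996 to 0.63, and the related lists, in grey, range from -0.33 to 0.30.

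Regulators of these genes in macrophages were a list of 17, of which 13 were tested and 0 called (limma; without adjustment, 0 higher and 1 lower at p under 0.05). Gata6, the factor that defines resident macrophages of the peritoneal cavity, had the smallest p, with a difference of -0.33 (limma adjusted p = 0.182), or -0.21 without UV-donor replicate 1. Rxrb differed by 0.11 and Klf4 by -0.09. Maf, a macrophage factor that acts on C1q genes, differed by -0.06, the LXR gene Nr1h3 by -0.06, its partner Rxra by -0.01 and Pparg by -0.05. Nr1h2 was not analysed here, and Spic lay below the filter. All 8 LXR target genes were tested, with 4 higher and 4 lower in value and 0 called (limma; 0 at an unadjusted p under 0.05). The transporter Abca1 differed by -0.18, Abcg1 by -0.07 and Srebf1 by 0.16. Without UV-donor replicate 1 Abca1 differed by -0.29 and Srebf1 by 0.093.

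The genes whose array values were most like the mean of the C1q genes were Cd209a, Stfa2, Ccr4, Cd209e, Ltf and S100a8. Likeness was Pearson's r over the 6 arrays, among 849 other named genes whose highest and lowest array differed by at least 0.5. The r values ran from 0.964 to 0.979, and from 0.144 to 0.658 for deviations from the group means, so most of the likeness lay in the difference between groups. These 6 genes were all called, where 0.172% of all tested genes were. Their differences were 0.59 (Cd209a), 0.89 (Stfa2), 0.49 (Ccr4), 0.75 (Cd209e), 0.54 (Ltf) and 0.77 (S100a8). Since all C1q genes separated the groups, picking genes like them favours such differences, so nothing is read from this count. Cd209a and Cd209e encode lectins of the DC-SIGN family, Stfa2 a cysteine protease inhibitor, Ccr4 a chemokine receptor, and Ltf and S100a8 abundant neutrophil proteins. The Cd209 and stefin genes have close relatives whose probes may share targets.

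The genes most like Cd5l were Igf1 (insulin-like growth factor 1), Gata6, Btbd11, Chchd10, Car6 (a secreted carbonic anhydrase) and Cox6a2 (a subunit of cytochrome oxidase), with r from 0.956 to 0.991. For deviations from the group means r ran from 0.756 (Car6) to 0.988 (Gata6), over the same 6 arrays. Igf1 read 11.87, 11.79 and 11.88 on the naive-donor arrays and 11.24, 11.54 and 11.52 on the UV-donor arrays. Gata6 read 9.63, 9.58 and 9.62 against 9.04, 9.36 and 9.44. In both, as in Cd5l, UV-donor replicate 1 was lowest and every UV-donor array lay below the naive-donor arrays. The genes were picked for likeness to Cd5l, so this shared order follows largely from the choice. The differences were -0.42 for Igf1, -0.36 for Btbd11, -0.32 for Chchd10, -1.39 for Car6 and -0.70 for Cox6a2, and none of the 6 genes was called (limma adjusted p-values from 0.0638 to 0.182). Without UV-donor replicate 1 the Cox6a2 difference was -0.45.

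**Figure D5:**
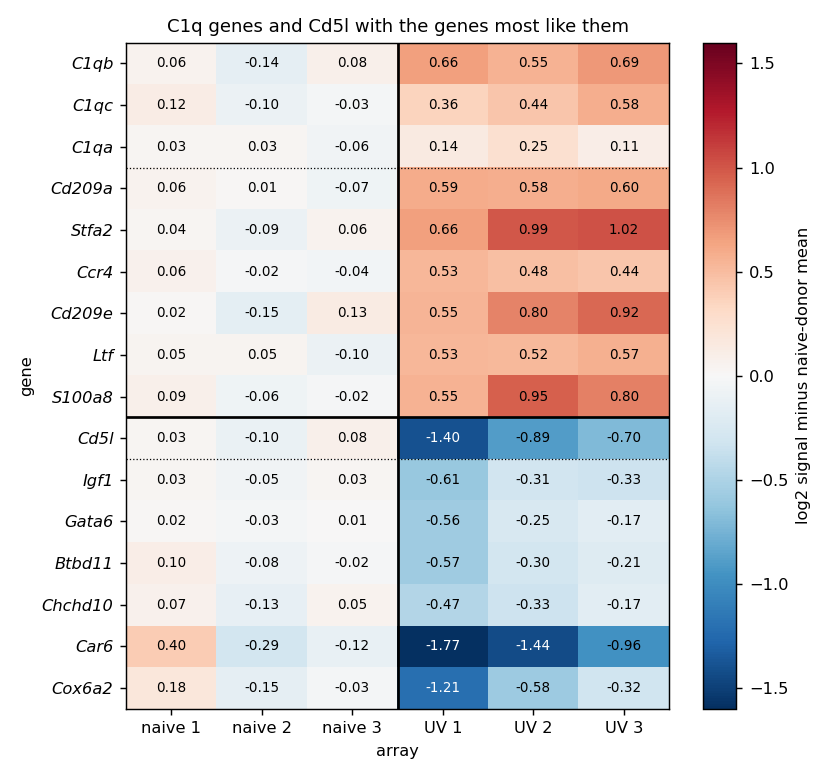
Log2 signal minus the naive-donor mean, by array, for C1qb, C1qc, C1qa and the 6 genes most like their mean (above the thick line), and for Cd5l and the 6 genes most like it (below). Red is higher and blue lower. In the lower block UV-donor replicate 1 has the lowest value in every row, which the choice of genes like Cd5l favours.

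Markers of other cells differed between the groups too, and their part in the C1q and Cd5l differences was not tested. Macrophage markers lay in both directions. Of 12 markers 10 were tested and 0 called (limma; without adjustment, 1 higher and 1 lower at p under 0.05), with Cd163 and Folr2 below the filter. The list level ran from 9.56 to 9.68 on the naive-donor arrays and from 9.62 to 9.68 on the UV-donor arrays. Adgre1 (an adhesion receptor that marks macrophages) differed by 0.51 (limma adjusted p = 0.0627, not called) and Lyve1, a hyaluronan receptor of some resident macrophages, by -0.54 (limma adjusted p = 0.163), both without overlap.

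Of 8 tested neutrophil markers 6 had higher values, with S100a8 and Ltf called (limma), where 0.172% of all tested genes were called. Without adjustment, 5 were higher and 0 lower at a limma p under 0.05, where 9.60% of all tested genes were higher and 5.49% lower. Camp (-0.02), Elane (-0.03) and Mpo (0.04) differed little and overlapped between the groups. The other members differed by 0.54 (Ltf) to 1.03 (Ngp). The list mean relative to the naive-donor group ran from -0.09 to 0.16 on the naive-donor arrays and from 0.353 to 0.564 on the UV-donor arrays. Of 5 measured monocyte markers 4 were tested and none called. F13a1 differed by 0.50 and Ms4a6c by 0.84 (0.51 without UV-donor replicate 1), while Ccr2 (-0.02) and Chil3 (-0.09) had lower values. The list mean, to which F13a1 and Ms4a6c gave the upward part, ran from -0.17 to 0.18 against 0.204 to 0.427. Dendritic cell markers ran from -0.02 to 0.03 against 0.188 to 0.286, with Cd209a called and Ciita, the class II transactivator, at 0.49 (limma adjusted p = 0.126). The other 4 tested members differed less, at -0.04 (Itgax), 0.05 (Zbtb46), 0.10 (H2-Ab1) and 0.15 (Dpp4, 0.079 without UV-donor replicate 1), and the median of the list was 0.12. Flt3 and Xcr1, also dendritic cell markers, lay below the filter. All 8 tested proliferation genes were higher in value and none was called (limma). At an unadjusted limma p under 0.05, 9.60% of all tested genes were higher, and so were all 8 of these. Their mean relative to the naive-donor group was 0.807 on UV-donor replicate 1, 0.409 on replicate 2 and 0.37 on replicate 3, where naive-donor arrays had -0.151 to 0.21, and Aurka differed by 0.53 and Prc1 by 0.62. UV-donor replicate 1 was highest for proliferation genes and lowest for Cd5l. Among the UV-donor arrays it was lowest for C1qc and lay between the others for C1qb and C1qa. Whether these orders are related was not tested.

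The remaining marker lists had 0 called genes (limma). Of B and T cell markers only Cd3e passed the filter (0.07). Pf4 (0.21) and Itga2b (0.07) led 3 tested markers of erythroid cells and platelets, with 1 at an unadjusted p under 0.05. Pecam1 (0.23) and Col3a1 (-0.19) had the smallest p of 4 tested markers of stromal and endothelial cells, and Lepr had the largest difference (0.25). Of these 4 markers, 2 were higher and 1 lower at an unadjusted limma p under 0.05.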

How the data were processed

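RNA of 6 CD11c-enriched preparations was measured on whole-transcript Affymetrix arrays. The authors deposited 1 log2 signal per probe set and array, with RMA, oligo and limma named in the submitters' processing notes, and no versions. RMA normalizes arrays by quantiles, so a global shift would not be seen. Batch information is not given in the sources used here.

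Values were used as deposited. Of 35556 probe sets, 21789 had 1 gene symbol in the platform annotation, 1621 had several and 12146 were not listed. Of the first, 21698 matched RefSeq genes of GRCm38.p6 by Entrez identifier. Groups were compared over all 6 arrays with limma 3.58.1 in R 4.3.3 (lmFit, eBayes, two-sided, Benjamini-Hochberg over 13956 genes, call at an adjusted p under 0.05), checked on simulated data. With 3 arrays against 3 an exact permutation test cannot give a two-sided p below 0.1. The number of arrays limits the precision.

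The genes described, the lists and the tests were chosen with earlier results of these data known. Named genes were the 10 genes, called list genes, the 3 of smallest p per list and the 2 per marker list, a fixed set of receptors, ligands, complement genes and regulators, and 6 genes most like C1q and Cd5l. Of the list genes, 14 had no single-symbol probe set. Alternatives were a replicate block, filters, scalings, priors, weights, probe set rules, thresholds and single arrays left out. Figures were drawn with matplotlib 3.10.9.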

Additional observations from a re-analysis of the deposited data

How the results depend on the processing

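The count of 24 called genes (limma) was 43 with centred array medians, 45 with an intensity trend and robust prior, 43 with array weights and 70 at an adjusted p under 0.10, each including the 24. It was 0 with every probe set tested (without adjustment, 1801 higher and 1708 lower at p under 0.05) and 1 to 32 with single arrays left out, with 1 when naive-donor replicate 1, UV-donor replicate 2 or UV-donor replicate 3 was omitted and 3 when naive-donor replicate 3 was. Of the 10 genes, 1 was called, and 0 with every probe set tested, 2 with array weights, 3 at an adjusted p under 0.10 (C1qb, C1qc and Cd5l) and 0 to 2 with single arrays left out (0 with any of the same 4 omitted, 2 without UV-donor replicate 1).

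C1qb kept its difference of 0.63 but not its call with every probe set tested (limma adjusted p = 0.271). That fit had more tests, and the SE of C1qb was larger, at 0.0767 against 0.0705 in the main fit. What led to the loss of the call was not tested. C1qc was called with array weights (0.51, limma adjusted p = 0.0489). Leaving out single arrays, the difference was 0.57 to 0.68 for C1qb, 0.40 to 0.52 for C1qc, 0.13 to 0.20 for C1qa and -1.14 to -0.79 for Cd5l. Of the smaller differences, Axl turned to 0.017 with centred medians and Mertk to 0.056 without UV-donor replicate 1 (single arrays left out gave -0.16 to 0.056). The cause was not tested. For genes outside the 10, values without UV-donor replicate 1 were added after seeing the data. No other sign among the tested genes of the 10 turned under these alternatives. In the 4 lists of related genes 0 were called under each of them. C1qa and Stab1 fell below the 50th percentile filter and have no value there.

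Whether arrays with a shared replicate number belong together is not in the labels. Their deviations from the group means correlated at -0.135, -0.224 and 0.148, which cannot decide it with so few arrays. A fit with the replicate block called 0 genes by limma, 0 of the 10 among them (before adjustment, 1286 were higher and 666 lower at p under 0.05). In it C1qb differed by 0.63 (limma adjusted p = 0.069).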

Other observations

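Both bridging proteins had overlapping groups when taken alone, with Mfge8 higher by 0.14 and Gas6 lower by 0.13 in the UV-donor group. Within arrays the Mfge8 signal relative to Gas6 was higher by 0.268 and did not overlap between the groups. Relative to the naive-donor mean it was 0.0008, -0.0283 and 0.0275 on naive-donor arrays 1, 2 and 3 and 0.42, 0.27 and 0.116 on UV-donor arrays 1, 2 and 3. The pair was singled out after its values were seen, so the value is a description. The signals of the TAM receptors Mertk and Axl relative to Gas6 overlapped between the groups, with changes of 0.0768 for Mertk and 0.116 for Axl (0.066 for Axl without UV-donor replicate 1).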
